A study of Mus musculus with 3 samples.

Results

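The collagen genes were examined in RNA-seq data of the mouse heart ventricle. They were taken as the loci of the deposited annotation that carry a gene name made of Col, a number, the letter a and a number, and they were joined to the expression table by locus identifier. This gave 54 of the 48626 loci in the table: 43 loci on the strand of the 43 collagen genes, and 11 loci antisense to a collagen gene. The 43 genes were divided by the fibre or network their chains build into 11 fibrillar, 9 basement membrane and 23 other collagens. All 3 libraries came from the heart ventricle of C57BL/6 mice with no treatment or mutation named, 1 each from embryos at E10.5 and E13.5 (days of gestation) and 1 from adults 8 weeks old (Adult). Total RNA was used with a stranded total RNA kit, and the number of animals behind each library is not given in the sources used here. The study compared the stages to follow transcripts through heart development. With 1 library per stage no difference could be tested against replicate error, so every comparison is between libraries and no p-value is given.

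Collagens are secreted proteins in which 3 chains wind into a helix, and each chain of the helix repeats the unit Gly-X-Y, with the small glycine packed inside where the chains meet. Fibrillar collagens (types I, II, III, V, XI, XXIV and XXVII) have long helices, unbroken in most of these types, and pack into fibres that bear tension. Type IV collagens join into the sheet of the basement membrane that surrounds cardiomyocytes and underlies endothelium, where types XV and XVIII are also found. The remaining types coat fibrils (the fibril-associated collagens, FACITs), form beaded filaments (type VI), form hexagonal nets (types VIII and X) or span the cell membrane (types XIII, XVII, XXIII and XXV). In the heart, fibroblasts are the main source of the fibrillar collagens, and endothelial and muscle cells contribute to the basement membrane.

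Values were FPKM (fragment numbers scaled to the exon length of the locus and to the size of the library), and a locus was counted as expressed from 1 FPKM, which is the limit used in the study. Where 3 values are given for a gene, they are its levels at E10.5, E13.5 and Adult, in this order, and each comes from 1 library. Changes are differences of log2(FPKM + 1) between 2 libraries, and a locus is called higher or lower where the difference was 1 or more in size. This scale understates the change of loci with low values. Of 20117 mRNA loci, 12569 were expressed in at least 1 library, and their median change was 0.17 from E10.5 to E13.5, -0.50 from E13.5 to Adult and -0.40 from E10.5 to Adult. With median-of-ratios scaling these medians were 0.04, 0.02 and -0.01. The 3 comparisons share libraries, so a high or low value in 1 library enters 2 of them. The cardiomyocyte marker Myl2 reached between 7790 and 12217 FPKM in every library, which matched the labelled tissue. Of the other listed cardiomyocyte markers, Tnnt2 had 626, 1522 and 3148 FPKM and Actn2 had 256, 252 and 453 FPKM. Ryr2, with 73.1, 18.8 and 281 FPKM, was lowest at E13.5. Nkx2-5, with 46.8, 61.1 and 9.37 FPKM, was lowest in the adult. From the lowest steps of the values, 1 FPKM over 5 kb stood for roughly 67.8, 129 and 81.6 fragments in the order of the stages.

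The Gly-X-Y repeat is visible in the genes themselves. Glycine codons are GGN, and in fibrillar collagen genes many exons hold a whole number of 9-base units that each start with such a codon. Of the internal exons of the fibrillar collagens, 525 of 625 (84.0%) had a length that is a multiple of 9, against 234 of 477 (49.1%) in the basement membrane collagens, 453 of 821 (55.2%) in the other collagens and 14.1% of 158856 internal exons of all mRNA loci. A length of exactly 54 bases was found in 305 of the 625 fibrillar exons (48.8%) and in 0.684% of the exons of all mRNA loci. The exons below show this unit in the fibrillar chains of types I and III and in a type IV chain, with the glycine codons in capitals. They lie at chr11:94939904-94939957 (plus strand, exon 8 of 51 of Col1a1), chr6:4515481-4515534 (plus strand, exon 8 of 52 of Col1a2), chr1:45325360-45325413 (plus strand, exon 6 of 51 of Col3a1) and chr8:11245211-11245264 (minus strand, exon 7 of 52 of Col4a1) of mm10, all within coding sequence.
Col1a1 exon 8: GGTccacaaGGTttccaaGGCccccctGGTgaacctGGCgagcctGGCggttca
Col1a2 exon 8: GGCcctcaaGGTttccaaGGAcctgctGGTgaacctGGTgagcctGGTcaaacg
Col3a1 exon 6: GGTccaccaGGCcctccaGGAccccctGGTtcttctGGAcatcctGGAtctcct
Col4a1 exon 7: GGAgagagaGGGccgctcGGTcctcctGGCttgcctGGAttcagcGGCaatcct

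Base by base, the printed exon of Col1a1 had 42 of 54 bases in common with that of Col1a2, 35 with that of Col3a1 and 25 with that of Col4a1. Only 1 exon per gene was compared, and the exons were not matched as counterparts. Each was chosen for its 54 bases of such units, so the GG of every glycine codon is alike by this choice. Nothing on chain assembly is read from these counts. All 21 exons of 54 bases in Col1a1, all 24 in Col3a1 and 23 of 24 in Col1a2 consisted of such units, whereas Col4a1 had 2 exons of that length. The longest run of units that start with GGN, read along 1 transcript per gene, was 338 in Col1a1, 339 in Col1a2 and 344 in Col3a1. It was shorter in the fibrillar genes Col24a1 (216) and Col27a1 (217). In Col4a1 it was 40, since interruptions break the helix of type IV chains. The median over 20115 mRNA transcripts was 3.

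Of the 43 collagen genes, 32 were expressed in at least 1 library: 10 fibrillar, 6 basement membrane and 16 others. The number expressed per library was 26, 29 and 21 in stage order. Of the expressed collagens, the adult held the highest level of 8, E13.5 that of 15 and E10.5 that of 9. The same count over all mRNA loci was not made, so these counts are not read as a trait of the collagens. The FPKM sum of mRNA loci was itself largest at E13.5, with 340323, 433549 and 330724 in stage order. The locus of Col20a1 also contains Arfgap1, a gene for a Golgi protein, so its 17.3, 24.1 and 8.82 FPKM cannot be assigned to the collagen. It was kept in the counts.

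**Figure D1:**
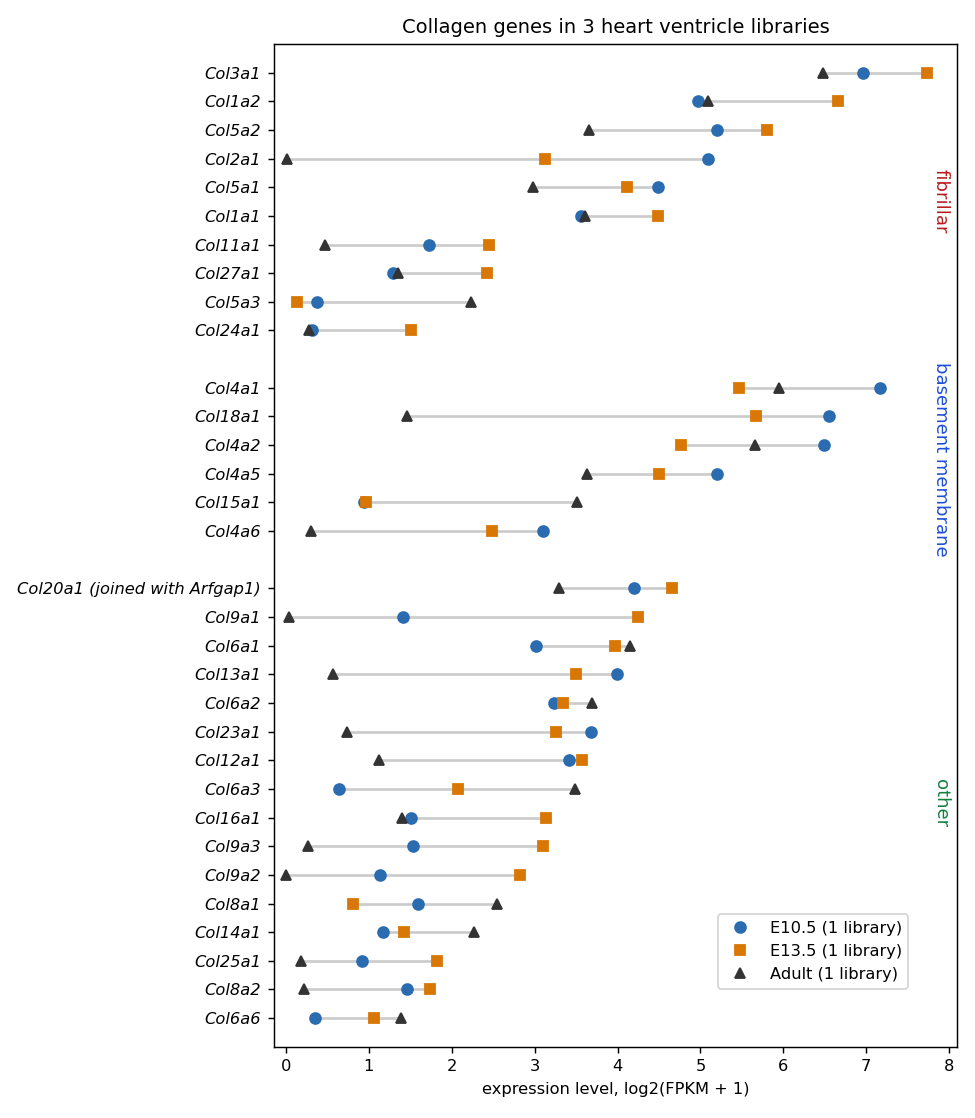
Expression level of the 32 expressed collagen genes, as log2(FPKM + 1) on the horizontal axis, with 1 point per library (circle E10.5, square E13.5, triangle Adult) and a grey line across the range. Col3a1 is the highest fibrillar collagen in all 3 libraries, Col18a1 falls from 93.0 to 1.74 FPKM, and Col15a1 reaches 10.4 FPKM in the adult only.

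Between E10.5 and the adult, more collagens were lower than higher. Lower in the adult by the limit of 1 were 15 of the 32 expressed collagens (46.9%), against 27.3% of all mRNA loci tested, and 6 (18.8%) were higher, against 14.8%. The 6 that were higher are Col5a3, Col6a1, Col6a3, Col6a6, Col14a1 and Col15a1. The median change was -0.86 over the 32 collagens and -0.40 over all mRNA loci. By class, the median was -0.26 for the fibrillar, -1.39 for the basement membrane and -0.81 for the other collagens. Among mRNA loci with at least 5 FPKM in 1 library, the median change over the same stages was -0.45 for transcripts of up to 45% GC and -1.02 for those over 60% GC, and the median GC content of the expressed collagen transcripts was 56.5%. The part of GC content in the collagen changes was not tested. Taken relative to the median change of the 300 mRNA loci nearest in transcript length and GC content, 9 collagens were lower (28.1%, against 14.9% of all mRNA loci) and 8 were higher (25.0%, against 22.4%). This removed Col4a1, Col8a2, Col9a1, Col9a2, Col9a3 and Col11a1 from the lower set and added Col6a2 and Col8a1 to the higher set. In bulk tissue, fewer cells of a type and less RNA per cell cannot be told apart, and this holds for every change given here.

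**Figure D2:**
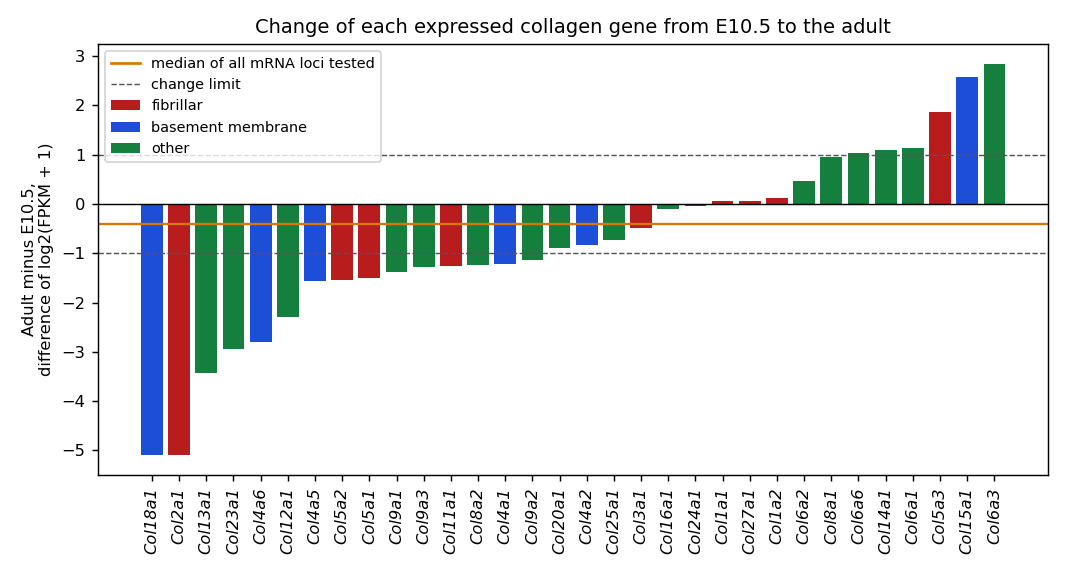
Difference of log2(FPKM + 1) between the adult and the E10.5 library for each expressed collagen gene, sorted, with bars coloured by class, dashed lines at the limit of 1 and an orange line at -0.40, the median of all mRNA loci tested. The bars run from -5.10 for Col18a1 to 2.85 for Col6a3, and those of Col1a1, Col1a2, Col24a1 and Col27a1 are close to 0.

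Among the fibrillar collagens, Col3a1, which encodes the chain of type III collagen and lies at chr1:45311538-45349706, was the most abundant in every library. It had 124, 211 and 88.3 FPKM. Col1a1 (chr11:94936164-94953095) gave 10.7, 21.4 and 11.2 FPKM. Col1a2 (chr6:4505262-4541592), the partner chain of type I collagen, gave 30.4, 100 and 33.1 FPKM. All 3 were highest at E13.5, and from E10.5 to the adult none of them passed the limit, with changes of 0.06 for Col1a1, 0.12 for Col1a2 and -0.48 for Col3a1.

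Type V collagen starts and limits the growth of type I fibrils. Its gene Col5a1 had 21.4, 16.3 and 6.91 FPKM, and Col5a2 had 35.7, 54.9 and 11.6 FPKM. Both were lower in the adult, where the E10.5 level was 3.10 and 3.08 times the adult level. Col5a3, the third chain gene of this type, went the other way: it had 0.298, 0.0932 and 3.71 FPKM, so the adult level was 12.5 times that at E10.5. In the adult it was higher than at E10.5 by 1.86 on the log2 scale. Col11a1, a chain of the related type XI collagen, had 2.32, 4.48 and 0.381 FPKM and had a change from E10.5 to Adult of -1.26, or -0.91 relative to loci of like length and GC content.

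Col2a1 (chr15:97975602-98004724), the fibrillar collagen best known from cartilage, was at 33.2 FPKM at E10.5, more than Col1a1 or Col1a2. It stood at 7.70 FPKM at E13.5 and at 0.00762 FPKM in Adult, a level worth about 0.639 fragments, so only the difference of -5.09 on the log2(FPKM + 1) scale is given for the adult. Its level was therefore lower at each later stage. The cartilage markers Acan, Matn1, Matn3, Comp and Chad summed to 1.19, 1.40 and 0.322 FPKM. This list leaves out the type IX genes Col9a1, Col9a2 and Col9a3, also known from cartilage. They were at 18.0, 6.06 and 7.60 FPKM at E13.5. The list of cushion and valve markers (Sox9, Twist1, Msx1, Hapln1 and Scx) summed to 144, 59.98 and 4.61 FPKM, of which Hapln1 made up 127, 22.0 and 0.101 FPKM. Without Hapln1 the list summed to 17.1, 38.0 and 4.51 FPKM and was thus highest at E13.5. Twist1 (9.16, 23.0 and 0.428 FPKM), Msx1 (2.75, 3.915 and 0.394 FPKM) and Scx (1.67, 8.17 and 3.35 FPKM) were highest at E13.5. Sox9 (3.56, 2.82 and 0.341 FPKM) was highest at E10.5. The part of either list of markers in the level of Col2a1 was not tested. Col24a1 and Col27a1 also had their maximum at E13.5, with 0.243, 1.84 and 0.208 FPKM for Col24a1 and 1.44, 4.37 and 1.56 FPKM for Col27a1. Col11a2 stayed at or below 0.179 FPKM.

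The basement membrane collagens held the gene with the highest level of all collagens at E10.5, Col4a1, and Col18a1, which with Col2a1 had the largest fall into the adult. Of their 6 expressed genes, 4 were lower (against 27.3% of all mRNA loci) and 1 was higher (against 14.8%) when Adult was compared with E10.5, and Col4a1 is 1 of the 4. Col4a1 (chr8:11198423-11312826) had 143, 43.2 and 60.7 FPKM. Col4a2 (chr8:11312829-11449287), whose chain joins with that of Col4a1 in the common type IV network, had 88.8, 26.2 and 49.6 FPKM. Both were highest at E10.5 and lowest at E13.5. From E10.5 to the adult the change was -1.22 for Col4a1, which did not pass the limit with median-of-ratios scaling (-0.76) or relative to loci of like length and GC content (-0.67), and -0.83 for Col4a2.

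The minor type IV chains followed another course. Col4a5 had 35.7, 21.6 and 11.4 FPKM, and Col4a6 had 7.59, 4.62 and 0.229 FPKM. Both were lower at each later stage, and the E10.5 level was 3.14 times the adult level for Col4a5 and 33.1 times for Col4a6. Col4a3 and Col4a4, which join with Col4a5 in the basement membrane of the kidney glomerulus, stayed under 1 FPKM, at 0.145, 0.125 and 0.693 FPKM and at 0.303, 0.0746 and 0.869 FPKM, with the adult value the highest of each.

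Type IV genes lie in pairs that start next to each other and run apart, so that each pair shares the region between its starts. In the deposited annotation, 2 bases lie between the starts of Col4a1 and Col4a2 on chromosome 8, 71 between those of Col4a4 and Col4a3 on chromosome 1, and 1308 between those of Col4a6 and Col4a5 on chromosome X. In RefSeq the first exons of Col4a1 and Col4a2 overlap by 22 bases, chr8:11312805-11312826, printed on the plus strand with a GC box (GGGCGG) in capitals. For the pair on chromosome X, the stretches before the starts that lie outside every annotated exon are printed as RefSeq's promoter windows on GRCm38 give them, chrX:141475169-141475369 on the plus strand for Col4a5 and chrX:141474096-141474326 on the minus strand for Col4a6, with a CCAAT box in capitals. They are shown because the 2 genes share the region but differed in level.
Col4a1 and Col4a2 overlap: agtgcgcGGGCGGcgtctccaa
Col4a5: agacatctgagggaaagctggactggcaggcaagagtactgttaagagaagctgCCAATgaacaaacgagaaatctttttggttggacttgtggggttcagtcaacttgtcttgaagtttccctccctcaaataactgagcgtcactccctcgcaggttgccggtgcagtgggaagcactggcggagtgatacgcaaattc
Col4a6: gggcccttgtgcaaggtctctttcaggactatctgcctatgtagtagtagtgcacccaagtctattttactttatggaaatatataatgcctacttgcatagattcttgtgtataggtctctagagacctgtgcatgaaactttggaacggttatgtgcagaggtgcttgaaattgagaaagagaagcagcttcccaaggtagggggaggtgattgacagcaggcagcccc

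The ratio of Col4a1 to Col4a2 was 1.61, 1.65 and 1.23 in stage order, so the chains of this pair kept close to each other. The ratio of Col4a5 to Col4a6 was 4.71, 4.68 and 49.6, or 10.1 in the adult after adding 1 FPKM to each. A ratio within a library does not depend on the scaling of that library. Among 38 promoter windows of 35 collagen genes in RefSeq (300 bases around the start), searched on both strands, GGGCGG was found in 23 (60.5%), against 35.6% of all 32817 windows. CCAAT was found in 13 (34.2%), against 37.4%, and the TATA box letters TATAAA in 5 (13.2%), against 13.6%. The windows of Col4a1 and Col4a2 cover much of the same sequence, and each held GGGCGG and CCAAT, while the TATAAA letters were found in the window of Col3a1. The windows of Col4a5 and Col4a6 also each held GGGCGG, which the stretches printed above, limited to bases outside exons, do not show. CCAAT was found in the window of Col4a5 and not in that of Col4a6. A match is only a match of letters.

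Types XVIII and XV are related collagens with interrupted helices, and the end of each can be cut off to give endostatin or a similar fragment that restrains the growth of vessels. Col18a1 (chr10:77052178-77166945) had 93.0, 50.1 and 1.74 FPKM. Col15a1 (chr4:47208012-47313279) had 0.926, 0.954 and 10.4 FPKM. Their order was thus reversed between the embryonic and the adult libraries: the E10.5 level of Col18a1 was 53.3 times the adult level, and the adult level of Col15a1 was 11.2 times the E10.5 level. The ratio of Col18a1 to Col15a1 was 100, 52.5 and 0.167. Col7a1, whose chain anchors the skin epithelium, stayed at or below 0.216 FPKM, and its locus also contains the microRNA gene Mir711. The endothelial markers apart from Col4a1 (Pecam1, Cdh5, Tie1, Tek and Kdr) summed to 222, 150 and 226 FPKM, and this sum was lowest at E13.5. Of the 5 markers, Cdh5 (50.2, 12.9 and 47.2 FPKM) and Kdr (48.1, 20.3 and 61.9 FPKM) were lowest at E13.5, while Tie1 (30.8, 28.9 and 18.8 FPKM) and Tek (46.5, 40.4 and 25.0 FPKM) were lowest in the adult and Pecam1 (46.5, 47.6 and 72.8 FPKM) at E10.5. Their part in the levels of Col4a1 and Col4a2 was not tested.

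Of the 4 expressed type VI collagens, which form beaded filaments near cells, 3 were higher in the adult, against 14.8% of all mRNA loci. Col6a1 had 7.10, 14.7 and 16.8 FPKM, and Col6a2 had 8.37, 9.17 and 11.9 FPKM. Col6a3 (chr1:90766860-90844023), whose chain completes the assembly with the other two, had 0.560, 3.22 and 10.2 FPKM. All 3 were highest in the adult and lowest at E10.5, and the adult level of Col6a3 was 18.3 times that at E10.5. Between E10.5 and Adult the change was 1.14 for Col6a1, 2.85 for Col6a3 and 0.46 for Col6a2, which did not pass the limit. The ratio of Col6a3 to Col6a1 was 0.0788, 0.219 and 0.608, while that of Col6a1 to Col6a2 was 0.848, 1.60 and 1.41. Col6a6 had 0.277, 1.08 and 1.62 FPKM and was higher in the adult by 1.04.

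The FACITs split in 2 directions. Col9a1, Col9a2 and Col9a3 encode the chains of type IX collagen, which coats type II fibrils in cartilage. Col9a1 had 1.67, 18.0 and 0.0235 FPKM. Col9a2 had 1.20 and 6.06 FPKM in the embryo and was listed at 0 in the adult, and Col9a3 had 1.89, 7.60 and 0.198 FPKM. All 3 were highest at E13.5, where Col2a1 was already lower than at E10.5. The adult levels of Col9a1 and Col9a3 stood for about 1.49 and 9.22 fragments, so no fold change into the adult is given. Col12a1, found on fibrils of tendon and other tense tissue, had 9.68, 10.9 and 1.17 FPKM and its E10.5 level was 8.28 times the adult level. Its relative Col14a1 had 1.24, 1.68 and 3.81 FPKM and was 3.07 times higher. Col16a1 had 1.84, 7.80 and 1.63 FPKM, with its maximum at E13.5.

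The expressed collagens that span the cell membrane were lowest in the adult library. Col13a1, found at sites of cell adhesion, had 14.9, 10.3 and 0.484 FPKM, and Col23a1 had 11.9, 8.55 and 0.669 FPKM. Both were lower in the adult, and the E10.5 level was 30.8 and 17.7 times the adult level. Col25a1, known for its role in the innervation of muscle, had 0.880, 2.55 and 0.134 FPKM. Of the hexagonal net collagens of vessel walls and the cornea, Col8a1 had 2.02, 0.743 and 4.85 FPKM and Col8a2 had 1.75, 2.33 and 0.164 FPKM. The 2 genes had opposite order: Col8a1 was highest in the adult and Col8a2 lowest there. The 11 collagen genes under 1 FPKM in all libraries were Col4a3, Col4a4, Col6a4, Col6a5, Col7a1, Col10a1, Col11a2, Col17a1, Col19a1, Col22a1 and Col28a1, and the highest value among them was the 0.869 FPKM of Col4a4 in the adult. Just inside the limit of 1 FPKM stood Col6a6, with a highest value of 1.62 FPKM. The gene now called Col26a1 appears in the annotation under its older symbol Emid2, which the naming rule does not take in. It had 8.43, 11.4 and 0.0524 FPKM.

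Between E10.5 and E13.5, the collagens that became more abundant were mostly fibrillar or fibril-associated, and both common type IV chains became less abundant. Higher at E13.5 were 8 of the 32 expressed collagens (25.0%), against 5.89% of all mRNA loci tested: Col1a2, Col6a3, Col9a1, Col9a2, Col9a3, Col16a1, Col24a1 and Col27a1. Lower were 3 (9.38%), against 4.85%: Col2a1, Col4a1 and Col4a2. The largest differences were 2.83 for Col9a1, 1.69 for Col1a2 and 1.68 for Col9a2 upward, and -1.98 for Col2a1, -1.72 for Col4a2 and -1.70 for Col4a1 downward. Rescaled to the mRNA sum without globin and mitochondrial loci, 7 were higher, against 3.36% of all mRNA loci, and 5 were lower, against 8.64%. Col27a1 was under the limit by both other scalings (0.99 and 0.91).

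The E13.5 library differed from the others in a trend with transcript length, which bears on the long collagen transcripts. Among mRNA loci that reached 5 FPKM in 1 library, the median E10.5 to E13.5 difference was 0.59 for transcripts up to 1000 bases and -0.48 for those over 8000 bases. From E10.5 to Adult the same medians were -0.43 and -0.45. The expressed collagens had a median transcript length of 6064 bases and ranged from 2746 to 11659 bases, against a median of 3240 bases for all mRNA loci tested. Relative to mRNA loci of like length and GC content, 11 collagens were higher at E13.5 than at E10.5 (34.4%, against 3.39% of all mRNA loci) and 3 were lower (9.38%, against 4.87%). The 11 were the 8 above with Col1a1, Col11a1 and Col25a1, and the 3 were again Col2a1, Col4a1 and Col4a2. The part of the trend in the FPKM values of E13.5 was not tested.

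**Figure D3:**
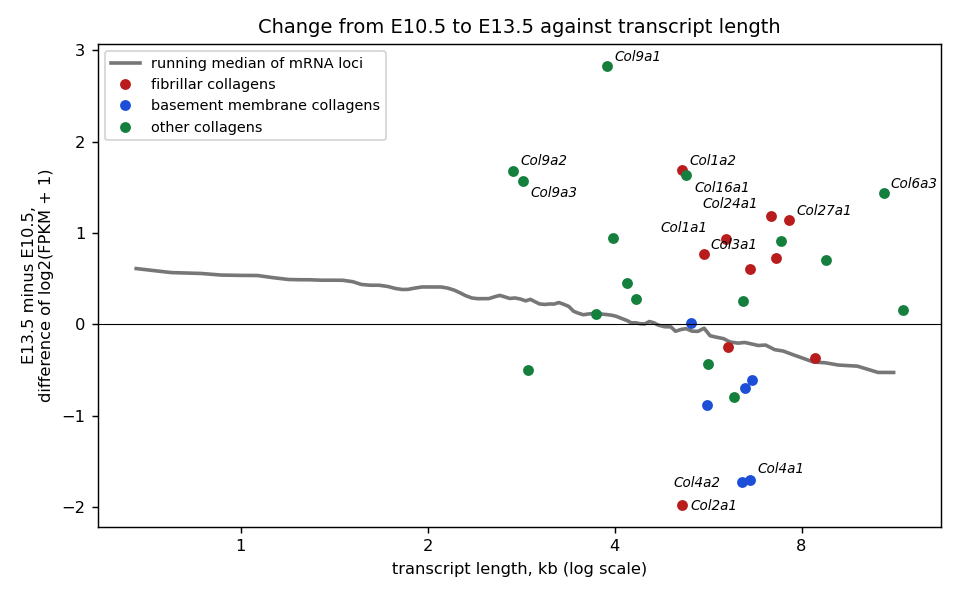
Difference of log2(FPKM + 1) between the E13.5 and the E10.5 library against transcript length in kilobases on a log axis, with collagen genes as points coloured by class and the running median of mRNA loci as a grey line. The grey line falls with length, Col9a1 at 2.83 and Col1a2 at 1.69 lie above it, and Col4a1, Col4a2 and Col2a1 lie below it at -1.70 to -1.98.

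From E13.5 to the adult most collagens became less abundant. Lower in the adult were 20 of 32 (62.5%), against 32.1% of all mRNA loci tested, and 4 were higher (12.5%), against 13.0%. The 4 were Col5a3, Col6a3, Col8a1 and Col15a1. Of the 10 expressed fibrillar collagens, 9 had a negative difference, against 8414 of the 12569 mRNA loci tested. Col5a3 was the exception, and the median of the 10 was -1.24, against -0.50 over all mRNA loci. The largest falls were those of Col18a1 (-4.22), Col9a1 (-4.21) and Col2a1 (-3.11). With median-of-ratios scaling, 14 were lower, against 18.0% of all mRNA loci, and 7 were higher, against 21.8%. Relative to loci of like length and GC content, 17 were lower (53.1%, against 15.0%) and 6 were higher (18.8%, against 22.3%), where Col4a2 and Col6a2 joined the 4 named above. Col3a1 changed by -1.25 and Col1a2 by -1.57, and these were -0.63 and -0.96 with median-of-ratios scaling, below the limit.

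Summed over their loci, the classes changed places. At E10.5 the basement membrane collagens summed to 370 FPKM and the fibrillar collagens to 260 FPKM. At E13.5 the sums were 147 and 423 FPKM, and in the adult they were 136 and 157 FPKM. Without the highest member of each class, the adult sums were 74.9 FPKM for the basement membrane and 68.7 FPKM for the fibrillar collagens. The adult order thus rested on the highest members. The basement membrane class thus made up 51.9%, 21.0% and 38.1% of collagen FPKM in stage order. The other collagens summed to 83.2, 130 and 63.5 FPKM, or to 65.9, 106 and 54.6 FPKM without the locus joined with Arfgap1. All collagens together summed to 712, 700 and 356 FPKM, which was 0.209%, 0.161% and 0.108% of the FPKM of mRNA loci. Col3a1 alone gave 47.6%, 49.96% and 56.2% of the fibrillar sum. The highest member of the basement membrane class was Col4a1 at E10.5 and in the adult and Col18a1 at E13.5.

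**Figure D4:**
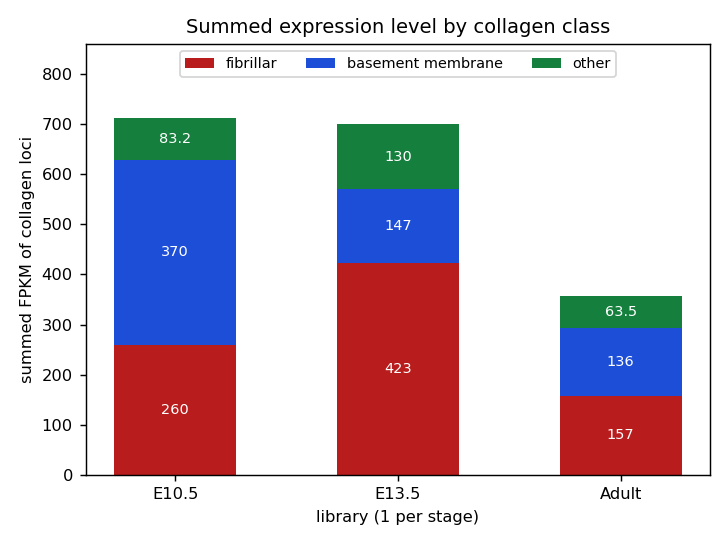
Summed FPKM of collagen loci in each library, stacked by class, with the sum of each class printed in its part of the bar. The basement membrane part is the largest at E10.5 (370 FPKM) and the fibrillar part is the largest at E13.5 (423 FPKM) and in the adult (157 FPKM).

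Among chains that build the same or mixed fibrils, the ratio of Col1a2 to Col1a1 was 2.83, 4.69 and 2.95. Type I collagen is usually made of more chains of Col1a1 than of Col1a2, so the order of the 2 FPKM values was the opposite of that of the chains in the protein in all 3 libraries. The longest transcript matching RefSeq was 6043 bases for Col1a1 and 5143 bases for Col1a2. The RefSeq transcript whose exons were counted was 4698 bases for Col1a1 and 5143 bases for Col1a2. The order of the 2 lengths thus depended on the transcript taken, and the part of the length in the ratio was not tested. The ratio of Col3a1 to Col1a1 was 11.5, 9.87 and 7.88, and that of Col3a1 to Col4a1 was 0.866, 4.90 and 1.45. The ratio of Col5a1 to Col5a2 was 0.5999, 0.297 and 0.596.

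The genes that make, bind and break down collagen were taken from 6 lists with 75 genes, of which 68 were expressed. From E10.5 to the adult 17 of the 68 were higher (25.0%) and 23 were lower (33.8%), read against 14.8% and 27.3% of all mRNA loci, and their median was -0.52. More were higher than lower with median-of-ratios scaling, 21 and 18 (against 20.6% and 17.6%), and relative to loci of like length and GC content, 21 and 16 (against 22.4% and 14.9%). Of the 17 enzymes and chaperones that modify and fold the chains, 9 were lower and 1 was higher, with a median of -1.15. With either of those alternatives 6 were lower and 2 higher, as P3h3, P3h4 and Serpinh1 no longer passed the limit and Plod1 did. Serpinh1 encodes the collagen chaperone Hsp47 and had 391, 562 and 147 FPKM. The largest falls of the list were those of the prolyl hydroxylases P3h2 (22.2, 7.73 and 1.49 FPKM) and P3h1 (25.9, 26.1 and 5.39 FPKM) and of the prolyl isomerase Fkbp10 (32.5, 42.2 and 6.57 FPKM). P4ha2, a chain of the prolyl 4-hydroxylase, was higher in the adult, with 9.48, 14.9 and 22.6 FPKM. It was followed by the lysyl hydroxylase Plod1, whose change was 0.61, and the galactosyltransferase Colgalt2 with 0.43.

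Of the 12 expressed genes of secretion, propeptide removal and cross-linking, 3 were higher (against 14.8% of all mRNA loci) and 2 were lower (against 27.3%) in Adult when set against E10.5, and the same 2 shares apply to the partner lists that follow. Higher were Pcolce2, an enhancer of propeptide removal (0.482, 0.270 and 5.33 FPKM), the propeptidase Adamts2 (0.468, 5.81 and 5.16 FPKM) and the cross-linking enzyme Lox (1.12, 14.6 and 4.46 FPKM). Lower were Loxl2, a relative of Lox (30.9, 48.6 and 6.80 FPKM), and Pxdn, which cross-links type IV collagen through sulfilimine bonds (51.7, 28.6 and 14.2 FPKM). Pcolce had the next lowest value, with a change of -0.72. Of the 13 expressed genes of degradation and its inhibitors, 5 were higher and 3 lower. The higher ones included the stromelysin Mmp3 (0.0370, 0.0206 and 13.1 FPKM), the inhibitor Timp4 (0.307, 0.142 and 13.3 FPKM) and the gelatinase Mmp9 (0.0697, 0.0585 and 3.25 FPKM). Lower were the membrane-bound collagenase Mmp14 (36.3, 45.4 and 7.49 FPKM), Mmp15 (28.1, 36.6 and 9.48 FPKM) and Mmp16 (3.25, 6.82 and 0.434 FPKM). Mmp15 did not pass the limit relative to loci of like length and GC content (-0.92).

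The collagen receptors of the discoidin domain family exchanged order. Ddr1 had 36.6, 42.0 and 3.08 FPKM, and Ddr2 had 1.58, 4.75 and 10.503 FPKM. Ddr1 was thus the more abundant in both embryonic libraries and Ddr2 in the adult library. Of the 7 expressed receptors, 2 were higher in the adult, Ddr2 and the leukocyte receptor Lair1 (0.0876, 0.486 and 2.45 FPKM), and 1 was lower. The integrin genes Itga2, Itgb1 and Itga1 did not pass the limit, with changes of -0.84, -0.27 and 0.34. Among 9 fibril partners, 4 were higher and 3 lower. Higher were Dpt, which speeds fibril assembly (2.50, 4.68 and 28.3 FPKM), the proteoglycan gene Dcn (49.5, 75.9 and 351 FPKM) and Tnxb (0.467, 0.267 and 6.47 FPKM), besides Lum (6.31, 66.3 and 23.2 FPKM). Lower were fibronectin, Fn1 (305, 33.6 and 80.4 FPKM), Fmod (2.43, 3.51 and 0.257 FPKM) and Sparc (322, 399 and 155 FPKM). Relative to loci of like length and GC content, Fmod (-0.93) and Sparc (-0.67) did not pass the limit and Fn1 was the 1 gene still lower, while Bgn joined the higher ones. Sparc was also under the limit with median-of-ratios scaling (-0.58).

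Of the 10 basement membrane partners, the laminins, nidogens and heparan sulphate proteoglycans that bind to the type IV network, 6 were lower at E13.5 than at E10.5 (against 4.85% of all mRNA loci) and none was higher (against 5.89%). Their median change was -1.27, and that of the 6 expressed basement membrane collagens was -0.79. From E10.5 to the adult 5 were lower and 2 higher. Nid2 (52.9, 21.1 and 2.18 FPKM), Agrn (35.6, 12.4 and 5.97 FPKM) and Lamb1 (74.7, 41.9 and 22.5 FPKM) had the largest falls. The laminin chains Lama2 (8.65, 5.48 and 39.0 FPKM) and Lamb2 (16.9, 12.8 and 50.9 FPKM) were higher in the adult, and Lama5 had a change of 0.73. With either alternative named above 4 were lower and 3 higher, as Hspg2 no longer passed the limit and Lama5 did.

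**Figure D5:**
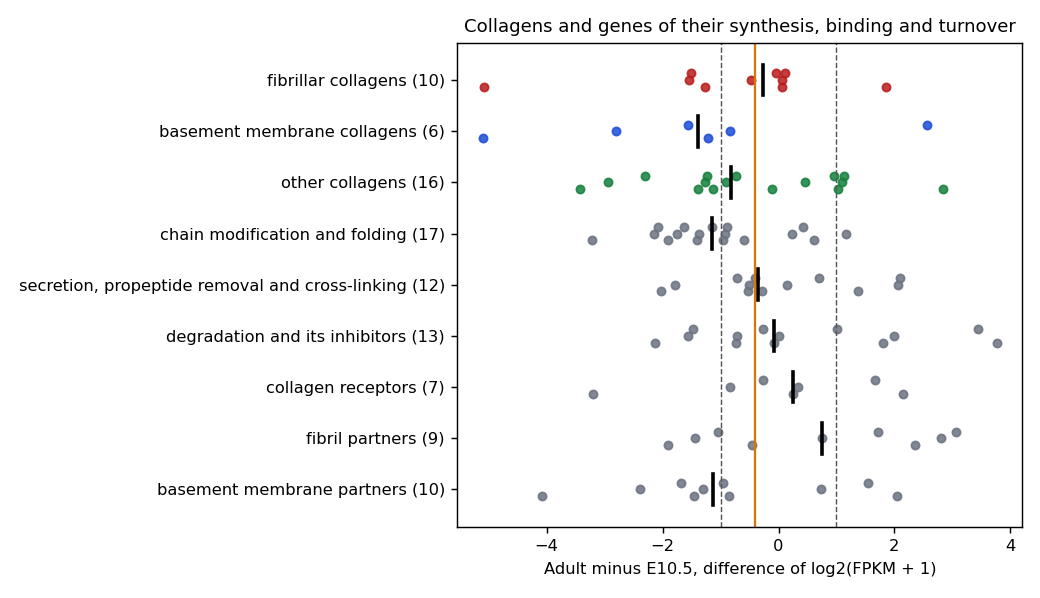
Difference of log2(FPKM + 1) between the adult and the E10.5 library for the expressed genes of each collagen class and of the 6 partner lists, with the number of genes in parentheses, the median of each list as a black bar, dashed lines at the limit of 1 and an orange line at -0.40, the median of all mRNA loci tested. The median is -1.39 for basement membrane collagens, -1.13 for their partners, -1.15 for chain modification and 0.76 for fibril partners.

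Markers of the cells that can make collagen moved in several directions. The fibroblast markers other than collagens (Pdgfra, Tcf21, Dcn, Lum and Dpt) summed to 88.4, 203 and 420 FPKM. Dcn made up 351 FPKM of the adult sum, and Dpt was also highest in the adult. Pdgfra (11.8, 33.3 and 16.2 FPKM), Tcf21 (18.3, 22.9 and 1.79 FPKM) and Lum (6.31, 66.3 and 23.2 FPKM) were highest at E13.5. Col1a1, Col1a2 and Col3a1 were likewise highest at E13.5. The mural markers (Pdgfrb, Rgs5, Cspg4, Notch3 and Kcnj8) summed to 41.1, 70.6 and 282 FPKM, the epicardial markers (Wt1, Upk3b, Upk1b, Msln and Aldh1a2) to 95.3, 96.8 and 18.0 FPKM, and the macrophage markers (Adgre1, Csf1r, Cd68 and C1qa) to 5.09, 29.9 and 98.2 FPKM. Of the mural sums, Rgs5 alone made up 9.81, 47.2 and 240 FPKM. Pdgfrb, Notch3 and Kcnj8 were also highest in the adult, whereas Cspg4 (17.4, 5.03 and 4.34 FPKM) was highest at E10.5. Of the epicardial markers, Upk3b (52.6, 43.7 and 1.49 FPKM) and Upk1b were highest at E10.5, and Wt1, Msln and Aldh1a2 at E13.5. Msln (0.555, 3.24 and 1.63 FPKM) was lowest at E10.5, unlike the other epicardial markers. No listed marker of these 4 cell types was at 0 in any library, and the part of cell numbers in the collagen levels was not tested.

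The mRNA loci whose 2 stage-to-stage changes were nearest to those of a collagen were sought among the 7604 loci with at least 10 FPKM in 1 library, by the sum of the absolute differences on the log2(FPKM + 1) scale. For Col1a1 they were Rpain, Ralgds, Gadd45gip1, Psma4 and Sept7, at sums of 0.0147 to 0.0656. For Col3a1 they were Yif1b, Tmem106c, Pebp1, Ttc5 and Pdcd6, at 0.0117 to 0.0575. For Col4a1 they were Naa15, Creb5, Hsph1, Gpc4 and Arid1a, at 0.157 to 0.204. Likeness over 3 libraries is a description only, and no other collagen was among these loci.

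The 11 antisense loci had 1 exon each, and 4 of them reached 1 FPKM. In 10 of the 11 the adult value was the highest, but the share over other antisense loci was not counted, so no trait is read from this. The largest was a locus antisense to Col10a1 at chr10:34396757-34397401, with 2.64, 0.419 and 4.69 FPKM, while Col10a1 itself was listed at 0 at E10.5 and E13.5 and had 0.0640 FPKM in the adult. A second locus antisense to Col10a1, at chr10:34393586-34394273, had 0.677, 0.385 and 1.39 FPKM. The exception to the adult maximum was a locus antisense to Col4a4 at chr1:82451388-82452057, with 1.62 FPKM at E10.5 and listed at 0 in the other libraries. How the strand of the fragments entered the FPKM values is not given in the sources used here.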

How the data were processed

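The submitters' processing notes and the study's methods name TopHat (TopHat2 in the methods) and Bowtie for mapping to mm10 and Cufflinks for assembly, run once with known transcripts and once without; further version numbers and the handling of multiply mapped fragments are not given in the sources used here. The authors deposited FPKM per merged locus and library, together with the exons of the merged transcripts. FPKM were used as deposited. Read counts were not used here, so the depth is known only roughly, from the lowest steps of single-exon loci, and no interval can be given.

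Each change is a difference of log2(FPKM + 1). Loci were filtered at 1 FPKM in at least 1 library, and a change of 1 or more was called. Transcript length and GC content came from the longest transcript matching RefSeq, read from GRCm38, the assembly of mm10; the 300 nearest loci in rank of both were taken from loci with at least 5 FPKM. Promoter windows came from RefSeq. Of the list genes, those with newer names were matched through RefSeq synonyms. The members and lists were chosen with earlier results of these data known. Every collagen at 1 FPKM or more was named, and of each partner list the 3 largest rises and falls from E10.5 to Adult among expressed genes, while Serpinh1, Lum, Bgn, P3h3, P3h4, Hspg2 and the single markers were named after their values were seen. The change and neighbour steps were tested on simulated data. Python 3.11.15, numpy 2.4.6, pandas 2.3.3, scipy 1.17.1 and matplotlib 3.10.9 were used. Alternatives covered scaling, pseudocount, limits, filter, joined loci, leading members and, added after seeing the data, changes relative to loci of like length and GC content. The result of 1 marker list is not reported here.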

Additional observations from a re-analysis of the deposited data

How the results depend on the processing

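No paired analysis was possible because every stage came with 1 library only. For the same reason no replicate could be left out. No call of a named gene changed sign under any alternative run, and of 528 values of single genes 474 kept their side of the limit. Of 159 values of counts, sums and ratios under the alternatives, 132 stayed within 1.5 times of the reported value. With a change limit of 2, the collagens higher and lower were 1 and 0 from E10.5 to E13.5, 2 and 10 from E13.5 to Adult, and 2 and 6 from E10.5 to Adult, and the partner genes were 4 and 2, 9 and 14, and 9 and 8, since the limit is stricter. The share of all mRNA loci past a limit of 2 was not counted, so no trait is read from these counts. With median-of-ratios factors, 7 collagens and 23 partner genes were higher in the adult than at E13.5, against 21.8% of all mRNA loci. As deposited, 14 of the 68 expressed partner genes were higher, against 13.0% of all mRNA loci. The partner genes lower in that comparison were 21 with these factors (against 18.0% of all mRNA loci) and 28 as deposited (against 32.1%). From E10.5 to E13.5, 5 collagens were lower both when rescaled without globin and mitochondrial loci (against 8.64% of all mRNA loci) and with a pseudocount of 0.1, where that share was not counted. Relative to loci of like length and GC content, an alternative chosen after seeing the data, 9 collagens were lower from E10.5 to Adult (against 14.9% of all mRNA loci). Without its highest member, the fibrillar sum was 136, 212 and 68.7 FPKM in the order of the stages, and the basement membrane sum was 227, 96.9 and 74.9 FPKM. The order of these classes in the adult was thus reversed. With 1 FPKM added, the ratio of Col6a3 to Col6a1 at E10.5 was 0.192, that of Col4a5 to Col4a6 in the adult 10.1, and that of Col18a1 to Col15a1 at E10.5 and E13.5 48.8 and 26.1. Values below about 0.1 FPKM stand for few fragments, and nothing is known of the spread between animals.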
